A study of Mus musculus with 7 samples.

Results

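The reporter library driven by the pPGK promoter was set against the input listed in the same deposited table, over windows of DNase hypersensitive sites in P5424 cells, a mouse T cell line. Each 315 bp fragment was placed at its midpoint in bins of 500 bp of the mm9 genome. A bin entered if it held at least 50 input reads with a mapping quality of at least 30, and a 5' end found on both strands was counted once. These criteria kept 50580 of the 549899 bins with a read in the pPGK table, and 2226787 bins had a read in any of the 4 tables. The selection used input reads only and set no minimum on reporter reads. Input reads are also the denominator of the ratio, so the selection is not independent of it. Of kept bins with 50 to 99 input reads, 6.36% were called above input and 9.17% below, by the rule given later. With 1000 or more input reads these shares were 2.68% and 23.1%.

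The series holds 7 samples, 1 library per group, from CapStarr-seq, in which captured genomic fragments are cloned into a self-transcribing reporter plasmid. Reporter RNA was collected with the promoters SCP1, pPGK and pR-Ea, and with pPGK in a library titled pPGK_PMA_I. The labels name inputs for SCP1, pPGK and pR-Ea. Both libraries described here, titled pPGK and "pPGK, input", carry no stimulus in their titles, while the treatment field names PMA/Ionomycin for every sample of the series, so the absence of a stimulus rests on the title. Growth in RPMI medium with 10% FBS is shared by all groups, and the labels give the molecule as polyA RNA for the inputs too. P5424 is a single cell line, and the labels name no separate cultures. The tables hold reads of the cloned fragments and no expression of the cells' own genes, so the cell type was not checked against markers.

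In this kind of assay the tested fragment lies within the transcript of the reporter, so its own abundance in RNA, divided by its abundance in the plasmid pool, measures the output of the promoter with that fragment present. The pPGK promoter comes from the gene of phosphoglycerate kinase, a glycolytic enzyme that nearly all cells make, and is used as a housekeeping promoter of steady output. A fragment can be cloned in either orientation, and each orientation places the other strand of the fragment in the RNA, where it can also bear on RNA processing and stability. Silencers are elements that lower the output of a promoter and enhancers are elements that raise it. No neutral insert was named in the labels, so a bin below input is low relative to the average bin and is not shown to silence, nor is a bin above input shown to enhance.

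The table held 72217277 reporter and 30248710 input reads, of which 46306764 (64.1%) and 16935374 (56.0%) had a mapping quality of at least 30. No label states which column is which, and the reading used here rests on the values: the column taken as input was equal at all 5258758 positions shared with the pPGK_PMA_I table. The kept bins held 29988686 reporter reads (64.8% of those at the mapping quality minimum) and 12164833 input reads (71.8%). The median bin had 294 reporter reads on 21 distinct positions and 105 input reads on 11. With 1 library of each kind no value has a replicate check and no p-value is given, so all differences are between these libraries. Counting intervals are exact (Clopper-Pearson) 95% intervals and cover counting error only, since PCR copies are not independent molecules. The standard error (SE) treats distinct positions as independent, although adjoining positions can share plasmids, and its median was 0.26 on the log2 scale.

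The 2 tails were unlike in number and in reach. A bin was called if its log2 ratio was 1 or more in size and its counting interval excluded equality, and 2247 bins (4.44%) were above input and 5192 (10.3%) were below it. The median log2 ratio was 0.095, with 5th and 95th percentiles of -1.59 and 0.97. The upper tail ended soon: 25 bins were at least 4-fold above input, 1 was at least 8-fold above, and the highest log2 ratio was 3.22. In the lower tail 1706 bins were at least 4-fold below, 711 at least 8-fold and 86 at least 64-fold. Reporter reads were at 0 in 27 bins. Bins below input held 15.3% of the input reads and 4.68% of the reporter reads, and bins above input held 2.97% and 7.44%.

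The zero of this scale is set by the totals of the kept bins. Scaling to all reads at the mapping quality minimum moved the median log2 ratio to -0.055 and gave 1146 bins above and 6420 below, so that 84.9% of calls were below input against 69.8%. With the median set to 0 there were 1439 above and 5924 below, or 80.5%. The order of the tails near the threshold was not fixed either. At 1.5-fold 9808 bins were above and 9458 below, and without the position that held most reporter reads in each bin 5835 were above and 5235 below. At 4-fold the counts were 25 and 1706 as given, so the unequal reach of the tails lies in the larger ratios.

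**Figure D1:**
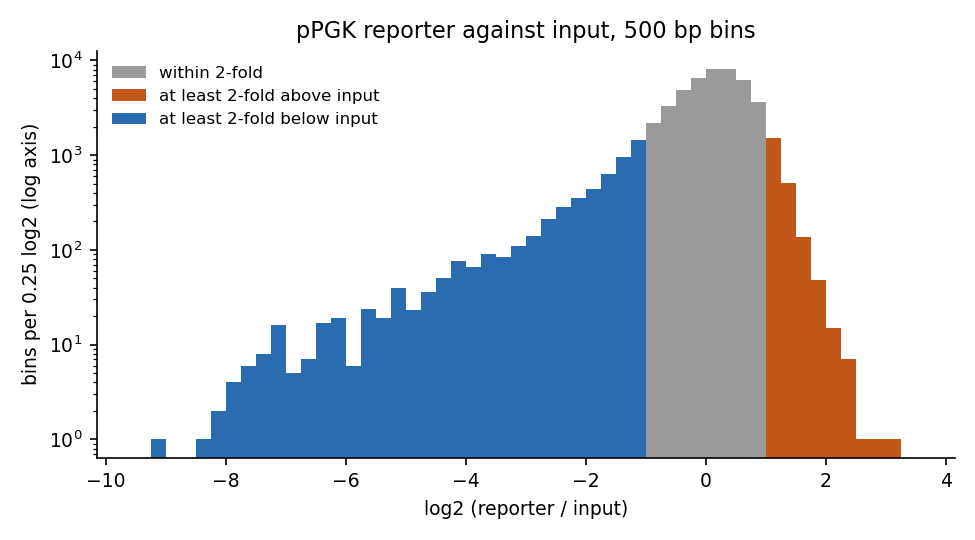
Number of bins (log axis) by log2 ratio of reporter to input, for all 50580 kept bins; orange bins are at least 2-fold above input and blue bins at least 2-fold below. The upper tail stops at 3.22, while the lower tail runs on to -9.20.

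Bins just inside the input minimum resembled those just outside it. The 4821 bins with 50 to 54 input reads had a median log2 ratio of 0.24, and the 6178 bins with 45 to 49 had the same median. In size alone, 7.53% of the former and 8.38% of the latter were at least 2-fold above, and 9.69% and 10.2% at least 2-fold below.

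Above input, 281 bins had at least 200 input reads and at least 20 distinct positions in both columns, and the 10 highest of these, with adjoining bins taken as 1, are named. First was chromosome 7, 149853501 to 149854000, where 33088 reporter reads met 2354 input reads and the log2 ratio was 2.51 (SE over positions 0.09, n = 1 library each). Its strands gave nearly the same ratio, 2.52 on the plus strand (9146 against 638 reads) and 2.48 on the minus strand (19820 against 1419). Chromosome 8, 90578501 to 90579000, followed with 23648 and 1709 reads and 2.49 (SE 0.11). Here the minus strand was higher, at 2.97 against 2.14. Chromosome 11, 23914001 to 23914500, held 19122 and 1541 reads at 2.33 (SE 0.09), and the bin next to it on the left, 23913501 to 23914000, held 42957 and 4187 reads at 2.06 (SE 0.06).

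The other named bins above input lay between 2.02 and 2.32. Chromosome 2, 93400001 to 93400500, had 9678 reporter and 783 input reads at 2.32 (SE 0.12). Chromosome 6, 124986001 to 124986500, had 9632 and 904 reads at 2.11 (SE 0.09) with both strands alike, at 2.05 and 2.17. Chromosome 17, 87738501 to 87739000, had 5776 and 542 reads at 2.11 (SE 0.11). These bins are above input on each strand that held at least 25 input reads. That does not hold for every named bin: chromosome 5, 66594001 to 66594500, came to 2.06 (SE 0.17) from 3795 and 369 reads, with 2.276 on the minus strand and 0.55 (SE 0.25) on the plus strand. Chromosome 9, 111550501 to 111551000, had 28405 of its 39448 reporter reads and 2779 of its 3776 input reads at positions listed on the plus strand alone, against 37 and 17 on the minus strand alone. The rest lay at positions listed on both strands, which belong to neither. Chromosome 6, 67509001 to 67509500, was listed on the minus strand alone with 17681 and 1708 reads, and on the plus strand alone with 0 of either. The last was chromosome 11, 71697001 to 71697500, with 2125 and 211 reads and 2.02 (SE 0.14).

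The mapping quality minimum had removed over 50% of the input reads of 5 of these bins: 86.5% on chromosome 2, 76.6% on chromosome 5, 64.8% on chromosome 8, 57.9% on chromosome 9 and 54.3% on chromosome 6, 67509001. With no minimum the chromosome 5 bin was at 1.61, and the other 4 lay between 2.10 and 2.37, so that all 5 stayed at least 2-fold above input.

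Counting distinct positions in place of reads took 8 of these 10 bins under 2-fold, to between -0.34 and 0.61, and left chromosome 17 at 1.28 and chromosome 11, 71697001, at 1.18. A position counts once whatever its reads, so this measure cannot show a difference in reads per position. The first bin held 293 reporter and 165 input positions, and the one on chromosome 17 held 113 and 28. No single position made up these ratios: the most used one held between 3.59% and 12.8% of a named bin's reporter reads.

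Below input, 1799 bins had at least 200 input reads on at least 20 positions, and the 10 lowest held almost no reporter RNA. Chromosome 3, 32782001 to 32782500, had 0 reporter reads against 238 input reads on 39 positions. At a floor of 3 counts per library it was 196-fold lower, which is more than the bound of its counting interval, a log2 ratio of up to -7.30. Chromosome 11, 3968501 to 3969000, had 6 against 900 reads and a ratio of -8.31 on the log2 scale (SE 0.81). Chromosome 14, 34922001 to 34922500, had 1 read against 235, at -8.18 (counting interval -14.49 to -6.69). The bin with most reads among these was chromosome 12, 4152501 to 4153000, with 22 reporter reads where the input held 2098 on 171 positions (-7.81, SE 0.40). Both of the next had 2 reporter reads: chromosome 5, 36172001 to 36172500, against 266 input reads, at -7.78 (counting interval -11.41 to -6.49), and chromosome 9, 97271001 to 97271500, against 255, at -7.72 (-11.35 to -6.43).

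The last named bins below input had between 3 and 10 reporter reads. Chromosome 5, 53015001 to 53015500, had 3 against 211 reads (-7.03, counting interval -9.73 to -5.87). Chromosome 13, 52357501 to 52358000, had 5 against 317 (-7.03, SE 0.72), chromosome 10, 84512001 to 84512500, 8 against 422 (-6.86, SE 0.47), and chromosome 16, 93291501 to 93292000, 10 against 496 (-6.80, SE 0.62). All 10 stayed at least 2-fold below input under each of the 10 or 11 alternatives that gave a value. The chromosome 16 bin was at -1.38 when reads were placed by their 5' end. The chromosome 14 bin was at -3.66 with no mapping quality minimum, which had removed 98.2% of its reporter reads. That minimum had also removed 89.5% of reporter reads on chromosome 9, 60% on chromosome 5, 36172001, and 56% on chromosome 12. With no minimum these bins were at -5.82, -6.67 and -7.06. The chromosome 3 and chromosome 16 bins were lower with no minimum, at -9.84 and -6.98.

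**Figure D2:**
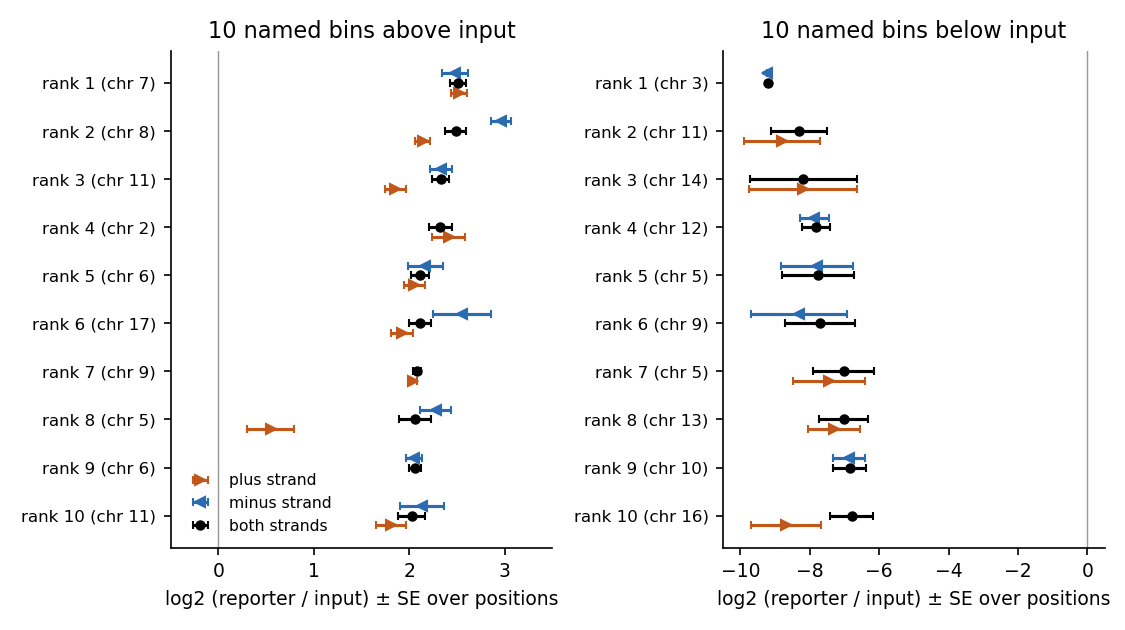
Log2 ratio of reporter to input for the 10 named bins above input (left) and below input (right), both strands together and for each strand with at least 25 input reads; bars are SE over distinct positions, and the top bin on the right, with 0 reporter reads, has none. The bins on the left often have a value on each strand, and each bin on the right has a value on 1 strand.

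The named low bins shared a feature that did not enter their choice. Each had at least 99.5% of its strand-assigned input reads on 1 strand. In 5 bins it was the plus strand and in 5 the minus strand. In chromosome 12, 4152501, 2059 input reads were on the minus strand and 0 on the plus strand, and in chromosome 11, 3968501, 899 were on the plus strand and 1 on the minus strand. With no mapping quality minimum the smallest of these shares was 99.6%. The input therefore lists these windows on essentially 1 strand, while the ratios given above pool the reporter reads of both. Chromosome 16, 93291501, had 2 reporter reads on plus against 495 input reads, and 5 on minus against 0. On the plus strand alone it was at -8.69. The sources do not say whether the listed strand is the orientation of the insert in the plasmid.

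The same was seen over the lower tail as a whole. The share of 90% or more of input reads on 1 strand, used to describe it, was chosen after these values were seen. Among the 15976 bins with at least 20 input positions, 20.1% had such an input. The share was 20.1% in the 373 bins above input, 13.2% in bins within the thresholds and 58.6% in the 2376 bins below input. It grew with depth of the tail, to 84.0% of the 836 bins at least 4-fold below, 93.9% of the 345 at least 8-fold below, 166 of the 170 at least 16-fold below and all 39 at least 64-fold below. Read the other way, 43.4% of the 3210 bins with input on 1 strand were below input, against 7.71% of the 12760 bins with input on both. In these bins 2.34% were above input in both classes. Over all kept bins, most of which have fewer positions, 48.95% of bins above input, 33.3% of bins within the thresholds and 64.8% of bins below had such an input.

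Mapping quality moved with both. The mean share of input reads removed was 21.4% in bins below input, 11.01% in bins within the thresholds and 9.91% in bins above. Bins with no reads removed were below input in 8.11% of cases, and bins with over 50% removed in 24.4%. Where at most 10% of reads had been removed, 42.9% of the 721 bins with input on 1 strand were below input against 6.74% of the 8186 with input on both, and 26 against 1 were at least 16-fold below. Among bins with at least 20 input positions, that limit left 721 of 3210 with input on 1 strand and 8186 of 12760 with input on both. With no reads removed, 14 of 38 bins with input on 1 strand were below input, and 52 of 898 with input on both. In each class 1 of these bins was at least 16-fold below. The part of mapping quality in the low ratios was not tested.

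Most bins with pPGK input on 1 strand did not have their input on 1 strand with the other promoters. Both classes, with pPGK input on 1 strand or on both, are here limited to bins with at least 20 pPGK input positions. Of the bins with input on 1 strand with pPGK, 20.7% of 2918 had an SCP1 input on 1 strand, and 20.5% of 2857 a pR-Ea input. Of those also below input with pPGK the shares were 16.2% and 13.7%. The share over all bins of the SCP1 and pR-Ea inputs is not given here, so whether these shares are raised cannot be told. Bins below input with pPGK were often below input with SCP1 too, where the SCP1 input has at least 50 reads: 952 of 1259 bins (75.6%) where the pPGK input lay on 1 strand and 660 of 966 (68.3%) where it lay on both. With pR-Ea the shares were 56.9% of 1261 and 41.5% of 960. Whatever their pPGK ratio, bins with pPGK input on 1 strand were below input in 42.2% of cases with SCP1 and 27.9% with pR-Ea, against 12.3% and 6.73% of bins with input on both. With no minimum of input positions, SCP1 put 15.9% of all 36721 shared bins below its input, and pR-Ea 8.61% of 31482. These last shares cover a wider set of bins and are not a like comparison. Medians on the log2 scale were -1.61 with SCP1 and -1.97 with pPGK in the 1259 bins with input on 1 strand, and -1.28 and -1.32 in the 966 with input on both. These bins were chosen by their pPGK ratio. The part of the strand make-up of the input in the low ratios was not tested.

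**Figure D3:**
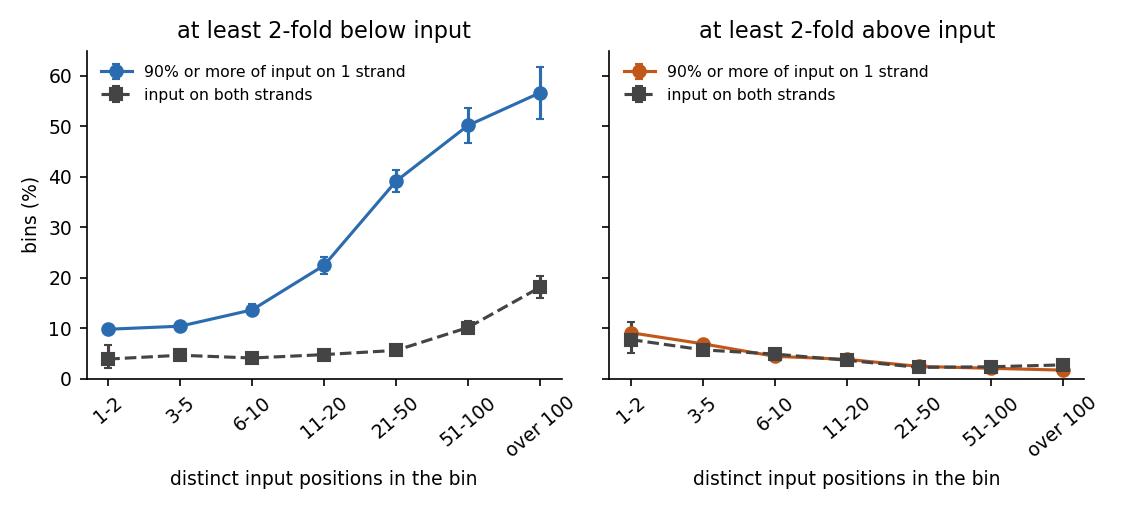
Share of bins at least 2-fold below input (left) and above input (right) against the number of distinct input positions, for bins with 90% or more of input reads on 1 strand and for bins with input on both; bars are exact 95% binomial intervals over bins, which are not independent. Below input the 1-strand class climbs to 56.7% against 18.1%, while above input both lines stay under 10%.

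The plot of the tails by input positions also shows how the tails depend on how well a bin was sampled. Bins with 1 to 2 input positions were above input in 8.98% of cases and below in 9.45%, with a median log2 ratio of 0.31. With over 100 positions 2.47% were above and 26.9% below, with a median of -0.29. The input count is the denominator of the ratio, so the number of input positions and the ratio share reads, and the part of this in the trend was not tested.

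The bins with the most input reads in each tail had log2 ratios from 1.07 to 2.08 above input and from -4.21 to -1.47 below it. Above input these were chromosome 13, 117941001 to 117941500, with 30547 reporter and 5892 input reads (1.07, SE 0.06), and the bins on chromosome 11, 23913501, and chromosome 9, 111550501, given above. The first was 0.33 on the plus strand and 1.60 on the minus strand. It was 0.92 after scaling to all reads and 0.98 with the median set to 0, under the threshold in both. Below input they were chromosome 1, 123322501 to 123323000, with 6217 and 6974 reads (-1.47, SE 0.05), chromosome 1, 43193501 to 43194000, with 1418 and 6683 (-3.54, SE 0.08), and chromosome 13, 113847001 to 113847500, with 842 and 6330 (-4.21, SE 0.23). On its strands the first was at -1.56 on plus (3254 against 3839 reads) and -0.050 on minus (209 against 86). Input of the second lay on both strands, 1332 reads on plus and 4108 on minus, and both were low, at -4.62 and -3.28. The bin on chromosome 13 was at -2.23 with reads placed by their 5' end. By distinct positions these 3 bins were at -0.66, -0.77 and -0.99, under the threshold.

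Neighbouring bins tended to have similar ratios. In 11904 pairs of adjoining kept bins the ratios had a Spearman rho of 0.47 across pairs. Each fragment is counted in 1 bin, but fragments on either side of a border can overlap, so adjoining bins are not independent. A neighbour of a bin below input was itself below in 48.4% of cases, where 11.9% of bins in pairs were below. A neighbour of a bin above input was above in 23.4% of cases, where 3.09% were above. In 18 pairs 1 bin was above and the other below. Of the 9592 stretches of at least 2 adjoining bins, 529 lay below input throughout, the longest over 7 bins, and 67 above throughout, the longest over 3.

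By chromosome the shares above input ran from 3.45% on chromosome 8 to 5.57% on chromosome 12 among the autosomes, and the X chromosome had 7.26% of 1419 bins, against 4.37% of 49049 on the autosomes. The X bins held fewer input reads, with a median of 82 against 105. In bins with over 10 input positions the shares were 3.92% and 2.86%. Below input the X chromosome had 8.25% and the autosomes 10.3%.

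Strand-separated ratios could be compared in 23698 bins (46.9%) with at least 25 input reads on each strand, each strand scaled to its own totals and positions on both strands left out. The strands differed often and by much. The median size of the difference was 0.64 on the log2 scale, 31.4% of bins differed at least 2-fold and 6.69% at least 4-fold. By a difference of at least 1 in size with a 95% interval over positions that excludes 0, the plus strand was higher in 3151 bins (13.3%) and the minus strand in 3280 (13.8%). Neither direction prevailed, and the median difference of plus minus minus was -0.0096. The plus strand rested on fewer distinct positions, with medians of 8 against 12 on minus in the input and 11 against 26 in the reporter. Median input reads were 99 on plus and 93 on minus.

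Across bins the ratio on 1 strand said little about the ratio on the other, with a Spearman rho of 0.15 over 23698 bins. Positions at even and odd coordinates of both strands gave 0.67 over 29398 bins. In 8513 bins that could be split on each strand into alternate 20 bp blocks, a split chosen after the data were seen, the blocks had a rho of 0.83 within the plus strand and 0.71 within the minus strand, against 0.13 between strands. Blocks of 1 strand share fragments that overlap, and bins share libraries, so these values are descriptions. The pPGK table stood apart in this from 2 of the others: the rho between strands was 0.80 over 31971 bins with SCP1 and 0.88 over 26541 with pR-Ea, and 0.38 over 25136 in pPGK_PMA_I, which shares the pPGK input. Differences of at least 2-fold were found in 8.30% of SCP1 bins and 2.276% of pR-Ea bins. How the fragments of each library were sequenced is not given in the sources used here, and its part in these values was not tested.

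**Figure D4:**
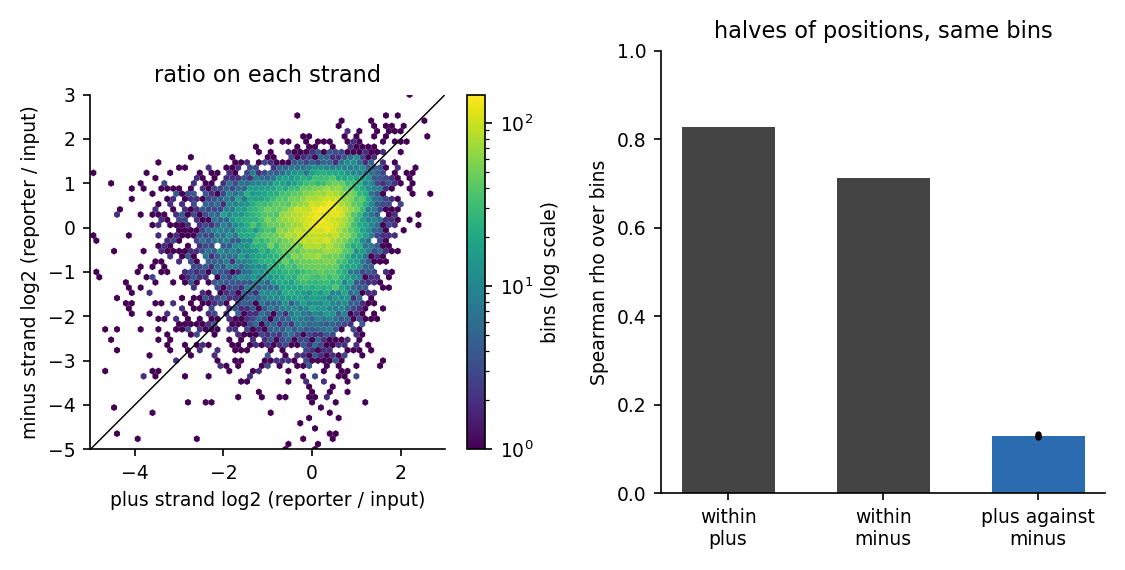
Left, log2 ratio on the plus strand against that on the minus strand for bins with at least 25 input reads on each strand (colour, number of bins on a log scale; bins beyond the axes are not drawn). Right, Spearman rho over 8513 bins between alternate 20 bp blocks within each strand and between strands, where the points are the 4 pairings of blocks; the bars within a strand reach 0.83 and 0.71 and the bar between strands 0.13.

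The named strand differences paired 1 strand far below input with 1 nearer to it. In chromosome 17, 39984001 to 39984500, 2666 reporter reads met 1015 input reads on the plus strand (0.074 on the log2 scale) and 80 met 1194 on the minus strand (-5.20). The difference was 5.28 (SE 0.25), or 2.94 with positions listed on both strands given to both, and this bin lay in a stretch of 12 kept bins. Chromosome 5, 147072501 to 147073000, had 1193 against 319 reads on plus (0.58) and 27 against 227 on minus (-4.35), a difference of 4.93 (SE 0.43). Chromosome 1, 172413501 to 172414000, differed by 4.26 (SE 0.37) and chromosome 19, 7276501 to 7277000, by 4.13 (SE 0.50), and a bin on chromosome 18 by 4.56 (SE 0.37), or 2.02 with positions on both strands given to both. In all 5 the plus strand lay between -0.16 and 0.77 and the minus strand between -5.20 and -3.49.

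With the minus strand higher, chromosome 12, 99291501 to 99292000, led with 240 reporter against 125 input reads on minus (-0.39) and 21 against 482 on plus (-5.77), a difference of -5.39 (SE 0.48). Chromosome 8, 25833501 to 25834000, had -3.92 (SE 0.31), with 0.70 on minus and -3.22 on plus. Chromosome 13, 113847001 to 113847500, one of the bins with most input below the threshold, had -3.76 (SE 0.51): its 5901 plus input reads met 507 reporter reads, and its 127 minus input reads met 149. Chromosome 1, 20734001 to 20734500, had -3.71 (SE 0.20) and chromosome 11, 5677501 to 5678000, -3.65 (SE 0.23). The last had 214 reporter against 609 input reads on plus and 2025 against 456 on minus, so that both strands together came to -0.23, within the thresholds. With positions on both strands given to both, the chromosome 12 difference was -3.57 and that on chromosome 1, 20734001, was -2.31. By distinct positions 5 of the 10 strand differences stayed at least 2-fold, and that on chromosome 13 turned to 0.63.

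In the SCP1 and pR-Ea tables the strands of these bins differed less, where both had a value. The bins were chosen for their large strand difference with pPGK, so smaller differences elsewhere can follow from the choice alone. Chromosome 17, 39984001, had -1.69 on plus and -1.53 on minus with SCP1, and -0.80 and -0.85 with pR-Ea. Chromosome 11, 5677501, had 0.62 and 0.72 with SCP1 and -0.10 and 0.10 with pR-Ea. Some kept the direction of their difference: chromosome 19, 7276501, had 0.18 and -2.56 with SCP1 and 0.11 and -1.35 with pR-Ea. Over all bins the strand difference with pPGK had a rho of 0.13 with that of SCP1 over 21390 bins and 0.065 with that of pR-Ea over 19597.

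Most bins of either tail were past 2-fold on 1 strand only. Of the 683 bins above input that could be compared by strand, 215 were at least 2-fold above on both strands and 464 on 1. Of the 1540 below input, 578 were below on both and 959 on 1. Counting all compared bins by size alone, 582 were below on both strands, 4922 below on 1 and within 2-fold on the other, 15824 within 2-fold on both, 1942 above on 1, 218 above on both, and 210 were above on 1 strand and below on the other.

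The tables of the other promoters, which have inputs of their own, followed this order. The classes also differ in the pPGK ratio of both strands together. Its medians were -1.54, -0.58, 0.14, 0.82 and 1.29, from below on both strands to above on both. The part of agreement between strands in the order was not tested. Bins below on both strands with pPGK were below input with SCP1 in 76.6% of 569 cases and with pR-Ea in 51.5% of 536. Bins below on 1 strand were below in 24.9% of 4715 and 12.2% of 4512, and bins within 2-fold on both in 6.37% and 3.09%. Bins above on both strands were above input with SCP1 in 50.2% of 207 cases, against 16.7% of 1776 for those above on 1 strand and 3.79% of all bins shared with SCP1. With pR-Ea the upper tail was barely found again, with 3.72% of 188 bins above on both strands and 0.883% of all shared bins.

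**Figure D5:**
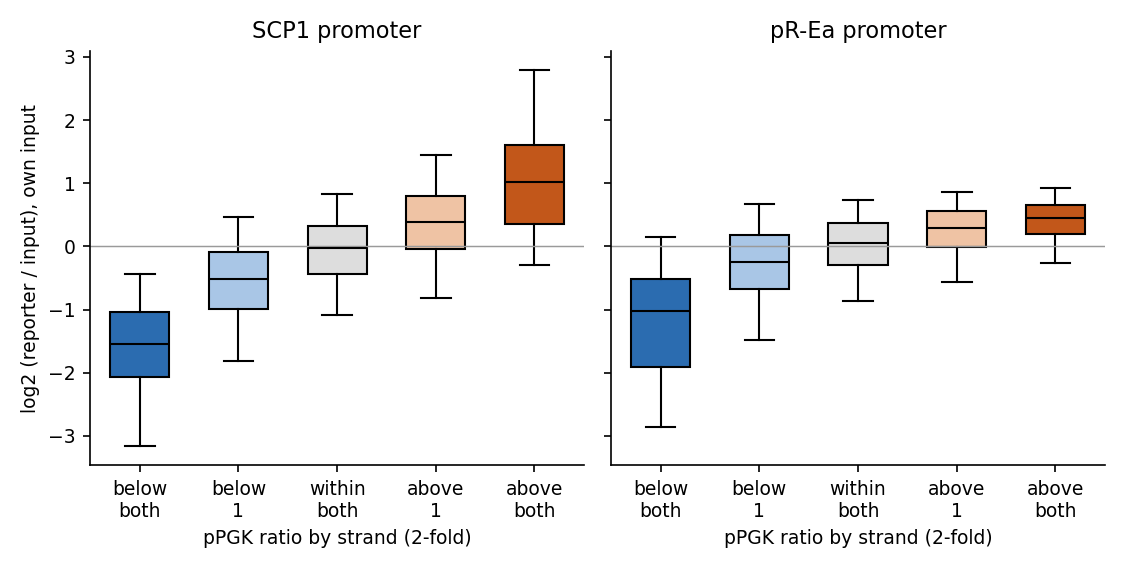
Log2 ratio of reporter to input with SCP1 (left) and pR-Ea (right), each against its own input, for bins grouped by their pPGK ratio on each strand; boxes span the quartiles with the median as a line, whiskers reach the 5th and 95th percentiles, and the 210 bins with opposite strands are left out. Medians climb from -1.55 to 1.02 with SCP1 and from -1.02 to 0.44 with pR-Ea.

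Over all shared bins the pPGK ratio had a Spearman rho of 0.53 with that of SCP1 over 36721 bins and of 0.47 with that of pR-Ea over 31482. The lower tails shared 2360 bins with SCP1, 64.3% of the pPGK bins below input and 40.5% of the SCP1 ones, and 1503 bins with pR-Ea, 44.7% and 55.5%. The upper tails shared 365 bins with SCP1, 27.9% of the pPGK and 26.2% of the SCP1 bins above input, and 25 with pR-Ea, 2.40% and 8.99%. The median SCP1 ratio was 0.54 in bins above input with pPGK and -1.30 in bins below. With pR-Ea these medians were 0.31 and -0.89.

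The named bins followed suit. All 10 named above input were above input with SCP1, from 1.78 on chromosome 5, 66594001, to 3.91 on chromosome 8, 90578501, where 53668 SCP1 reporter reads met 2820 input reads. All but the chromosome 5 bin had a higher log2 ratio with SCP1 than with pPGK. With pR-Ea 1 of the 10 reached 2-fold, the chromosome 7 bin at 1.15 (SE 0.04), and chromosome 5, 66594001, was the lowest. All 10 named below input were at least 2-fold below with both other promoters. Chromosome 3, 32782001, had 0 SCP1 reporter reads against 153 and 4 pR-Ea reads against 169. Chromosome 12, 4152501, had 12 SCP1 reporter reads against 870 (-6.41, SE 0.58) but was at -2.43 (SE 0.55) with pR-Ea. Chromosome 16, 93291501, was the least low with SCP1, at -1.29 (SE 0.52).

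The pPGK_PMA_I table shares its input with pPGK, so its values are given beside those of pPGK and not as a separate line of evidence. The input reads at the mapping quality minimum still differed, with 20531870 in pPGK_PMA_I against 16935374. The named bin on chromosome 7 had 3296 against 2354. Reporter reads at that minimum were 98.9% in pPGK_PMA_I and 64.1% with pPGK. Bins above input with pPGK had a median log2 ratio of 1.15 with pPGK and 1.48 in pPGK_PMA_I, and bins below input had -1.57 and -1.28. Over all 50447 bins compared the median also moved, from 0.095 to 0.30. The named bins above input lay between 1.46 and 2.29 in pPGK_PMA_I, and those below between -6.98 and -5.56. At chromosome 3, 32782001, 11 reporter reads were found against the same 238 input reads, where pPGK had 0.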

How the data were processed

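The submitters' processing notes name mm9 as the build and bedtools (2.28.0), SAMtools and Bowtie2 as tools. For parameters, step order and other versions nothing is given in the sources. The deposited tables carry no header. Nearly every line is a fragment of 315 bp, with the authors' mapping quality score in column 5 and deposited read counts in columns 7 and 8, taken as reporter and input counts. A 5' end listed on both strands carries the same counts on both lines and was counted once, at its 5' end.

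Bins were scored as log2 of (reporter + 1)/(input + 1), each scaled to its total in kept bins (Python 3.11.15, numpy 2.4.6, pandas 2.3.3, scipy 1.17.1, matplotlib 3.10.9). Bins in the other tables needed 50 input reads there. Called bins passed a log2 size of 1 with a 95% counting interval that excluded equality; strand calls used a 95% interval over positions. The code was tested on simulated counts. Named bins were, by rule, the 10 most extreme called bins per tail with at least 200 input reads and 20 distinct positions (input and, above input, reporter), 1 per stretch of adjoining bins, the 3 called bins with most input per tail, and the 5 largest strand differences per direction with at least 100 input reads and 10 positions on each strand. The members, lists and rules were chosen with earlier results of these data known. No mm9 genome or annotation was used here, so no gene, sequence or repeat class is given.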

Additional observations from a re-analysis of the deposited data

Results flagged for a closer look

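Some bins lay at least 2-fold on opposite sides of input with different promoters, each against its own input, and the difference between promoters was not tested. With pPGK above and SCP1 below there were 38 bins, and with pPGK below and SCP1 above 12, of 36721 compared. With pPGK above and pR-Ea below there were 17 bins, and with pPGK below and pR-Ea above 4, of 31482 compared.

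Reads outside the kept bins also held signal. In 1041 bins there were 0 input reads and at least 50 reporter reads, with up to 698 in 1 bin, and no ratio to input was formed. Reads outside the kept bins made up 35.2% of reporter and 28.2% of input reads at the mapping quality minimum.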

How the results depend on the processing

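Some settings change the number of bins compared, so a moved count need not be a moved share. Against 2247 bins above and 5192 below input of 50580, there were 4801 above of 64667 with no mapping quality minimum. With at least 20 input reads 9646 were above and 15982 below of 137047, and with at least 200, 442 and 1762 of 14664. Of the same 50580 bins there were 793 and 916 by distinct positions, 9808 and 9458 at 1.5-fold, and 25 and 1706 at 4-fold. Only the count above moved by over 1.5 times with scaling to all reads (1146), with the median at 0 (1439) and without the position with most reporter reads (5835). Restrictions chosen after the data were seen gave 373 above and 2376 below of 15976 bins with at least 20 input positions. They gave 1147 and 1825 of 31709 with under 90% of input on 1 strand, and 2725 below of 36873 with at most 10% of reads removed. The median log2 ratio of 0.095 turned to -0.055 with scaling to all reads and was 0 by construction with the median set to 0. It was 0.16 with no mapping quality minimum, 0.11 with every listed line, 0.12 and 0.0100 with at least 20 and 200 input reads, 0.063 with a pseudocount of 5, 0.037 by distinct positions, 0.14 without the top position, and 0.068 and 0.052 on the plus and minus strand alone. Against 3151 bins with the plus strand higher and 3280 with the minus strand higher of 23698, there were 708 and 906 by distinct positions and 730 and 791 at 4-fold. With at least 100 input reads on each strand there were 1283 and 1329 of 7946. With at least 10 positions on each, added after the data were seen, there were 1395 and 1562 of 8594. The median strand difference of 0.64 was 0.59 with positions on both strands given to both, 0.66 with no mapping quality minimum, 0.62 with a pseudocount of 5, 0.38 by distinct positions, 0.77 without each strand's top position and 0.67 with at least 100 reads. The rho between strands of 0.15 was 0.24, 0.091 and 0.12 with positions on both strands given to both, by distinct positions and without the top positions, and 0.13 with reads placed by their 5' end, also added later. By distinct positions, which do not show reads per position, 5 named or deep bins above input turned. They came to -0.15 (chromosome 8), -0.29 (chromosome 2), -0.34 (chromosome 9), -0.34 (chromosome 11, 23913501) and -0.020 (chromosome 13). The chromosome 13 strand difference turned to 0.63. The causes were not tested. Bins shifted by 250 bp gave no value for single bins, whose borders change, and strands with too few reads gave none.

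No paired analysis was possible because each group held 1 library. Depth limits the bins with few positions most: 316 bins had no SE over positions, and a bin with 0 reporter reads has only a bound.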
